A study of Mus musculus with 6 samples.

Results

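Transcripts of the DNA replication machinery and of the G1/S step of the cell cycle were followed in mouse mesenchymal stem cells that had or had not been exposed to terahertz radiation. The set held 38 genes, taken by exact gene symbol from the platform annotation out of 18193 genes with a probe set of their own, and all 38 were measured. Where a gene had several probe sets, the brightest on average was used. The cells were bought mouse mesenchymal stem cells, kept in medium with rosiglitazone (1 µM), insulin (5 µg/ml), IBMX (100 µM) and dexamethasone (1 µM), a mix that drives fat cell formation and was given again 48 h before the exposure. Irradiated cultures received broadband pulses of 35 fs near 10 THz at 1 kHz and 1 mW/cm2 for 2 h. Control cultures had the same cells, medium and mix, stood next to the exposed culture and got no pulses, and both kinds were held at 26 to 27 °C. Each of 3 independent experiments gave 1 irradiated and 1 control culture, so there were 6 arrays in 3 pairs, and RNA was taken directly after the exposure. The strain, genotype and age of the donor animals are not given in the sources used here.

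Before a cell copies its DNA, the origin recognition complex, Cdc6 and Cdt1 load the ring-shaped Mcm2 to Mcm7 helicase onto origins during G1. At the G1/S step, D-type and E-type cyclins drive phosphorylation of the retinoblastoma protein, which frees E2F factors to switch on many of these same genes. Cdc45 and the GINS complex then turn the loaded rings into active helicases, and polymerases that hold onto the sliding clamp Pcna copy the strands. Mesenchymal cells that start on the fat cell programme in culture can pass through further divisions before they differentiate, so this gene set is one way of reading how far such a culture still cycles.

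Promoter windows for the genes on which the results turn are printed first, from 250 bases before to 50 bases after the annotated start site, in RefSeq's GRCm38.p6 mouse assembly. A window was found for 31 of the 38 genes, with several windows for 4 of them. Not matched were Mcm4, Gins1, Gins2, Prim2, Pole, Ccnd1 and Ccne2. Exact matches to 4 E2F words (TTTCCCGC, TTTCGCGC, TTTGCCGC and TTTGGCGC, either strand) were found in windows of 12 of the 31 genes. Of the 36 windows of these genes, 33.3% held an E2F word, against 2.27% of 32851 windows of the same length over the genome. The CCAAT word, on either strand, was in 58.3% of the members' windows and 37.4% of all windows. The GC box word GGGCGG, on either strand, was in 72.2% and 35.7%, and the cell cycle homology word TTTGAA in 8.33% and 17.9%. Such a match describes letters in a window and does not show a bound factor, and motifs may overlap one another.

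The first 5 promoters, with E2F words in capitals, belong to genes with a pair difference above 0.5 in experiment 3, as given further on. Chtf18 and Tk1, also above 0.5 there, have a window without an E2F word and follow in the second group, and Gins1 and Ccne2 had no window. All are written 5′ to 3′ on the strand of the gene. In Mcm5 and Mcm6 a pair of E2F words on opposite strands overlap and form 1 longer run of capitals. The windows are chr1:20820263-20820562, minus strand, for Mcm3; chr8:75109259-75109558, plus strand, for Mcm5; chr1:128359656-128359955, minus strand, for Mcm6; chr7:13278576-13278875, plus strand, for Lig1; and chr17:56304063-56304362, plus strand, for Uhrf1. For Lig1 and Uhrf1, other windows without an E2F word are not printed.
Mcm3: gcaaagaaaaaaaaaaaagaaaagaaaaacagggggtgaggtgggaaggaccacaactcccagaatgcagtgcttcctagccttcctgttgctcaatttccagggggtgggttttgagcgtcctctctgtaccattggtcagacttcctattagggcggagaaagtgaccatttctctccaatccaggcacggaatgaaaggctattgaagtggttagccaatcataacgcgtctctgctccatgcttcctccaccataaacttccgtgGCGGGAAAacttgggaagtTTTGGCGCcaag
Mcm5: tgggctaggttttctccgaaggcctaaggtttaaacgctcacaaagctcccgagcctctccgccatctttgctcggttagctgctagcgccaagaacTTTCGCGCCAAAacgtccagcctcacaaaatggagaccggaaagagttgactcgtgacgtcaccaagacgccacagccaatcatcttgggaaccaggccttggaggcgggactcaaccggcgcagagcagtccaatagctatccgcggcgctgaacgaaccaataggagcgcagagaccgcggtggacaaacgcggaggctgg
Mcm6: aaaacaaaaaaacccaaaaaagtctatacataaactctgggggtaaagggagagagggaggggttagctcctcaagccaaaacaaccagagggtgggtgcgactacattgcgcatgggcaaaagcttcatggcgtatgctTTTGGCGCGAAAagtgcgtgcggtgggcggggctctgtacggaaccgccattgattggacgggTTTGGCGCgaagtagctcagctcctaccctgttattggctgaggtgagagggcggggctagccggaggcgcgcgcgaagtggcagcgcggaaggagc
Lig1: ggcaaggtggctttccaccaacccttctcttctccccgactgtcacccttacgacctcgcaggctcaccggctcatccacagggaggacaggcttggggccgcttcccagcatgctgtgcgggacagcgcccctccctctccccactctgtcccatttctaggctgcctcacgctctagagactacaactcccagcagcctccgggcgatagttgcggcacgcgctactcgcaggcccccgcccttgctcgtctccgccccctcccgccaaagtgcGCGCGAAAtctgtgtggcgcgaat
Uhrf1: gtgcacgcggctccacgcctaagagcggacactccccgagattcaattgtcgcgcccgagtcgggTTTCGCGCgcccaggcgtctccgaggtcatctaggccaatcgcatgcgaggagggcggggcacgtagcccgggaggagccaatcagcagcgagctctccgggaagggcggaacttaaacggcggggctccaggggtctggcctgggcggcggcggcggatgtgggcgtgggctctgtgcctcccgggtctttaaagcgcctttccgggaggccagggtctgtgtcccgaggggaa

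The other promoters, without an E2F word, are shown because Slbp and Pcna were the members that passed a test between experiments, Chtf18 had the smallest unadjusted p for irradiation, and Chtf18 and Tk1 passed 0.5 in pair 3. Capitals mark CCAAT or its reverse complement ATTGG. The Tk1 window holds neither and so has no capitals. The windows are chr5:33652525-33652824, minus strand, for Slbp; chr2:132253131-132253430, minus strand, for Pcna; chr17:25727366-25727665, minus strand, for Chtf18; and chr11:117825965-117826264, minus strand, for Tk1.
Slbp: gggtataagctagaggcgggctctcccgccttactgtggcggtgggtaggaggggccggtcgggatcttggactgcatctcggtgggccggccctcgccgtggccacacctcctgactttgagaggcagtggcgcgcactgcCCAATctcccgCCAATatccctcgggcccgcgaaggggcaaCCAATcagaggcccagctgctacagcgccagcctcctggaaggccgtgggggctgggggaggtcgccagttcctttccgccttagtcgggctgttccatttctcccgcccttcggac
Pcna: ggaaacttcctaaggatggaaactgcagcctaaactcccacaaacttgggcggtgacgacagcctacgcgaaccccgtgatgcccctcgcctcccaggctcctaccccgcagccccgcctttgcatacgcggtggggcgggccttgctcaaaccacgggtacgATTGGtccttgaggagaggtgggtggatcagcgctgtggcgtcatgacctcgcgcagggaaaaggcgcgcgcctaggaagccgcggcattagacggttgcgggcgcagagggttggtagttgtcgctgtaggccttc
Chtf18: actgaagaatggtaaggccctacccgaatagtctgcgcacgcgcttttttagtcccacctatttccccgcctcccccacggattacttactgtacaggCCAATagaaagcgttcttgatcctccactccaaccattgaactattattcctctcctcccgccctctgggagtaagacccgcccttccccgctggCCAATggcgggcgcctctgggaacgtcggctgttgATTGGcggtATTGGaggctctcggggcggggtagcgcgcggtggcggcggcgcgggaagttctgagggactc
Tk1: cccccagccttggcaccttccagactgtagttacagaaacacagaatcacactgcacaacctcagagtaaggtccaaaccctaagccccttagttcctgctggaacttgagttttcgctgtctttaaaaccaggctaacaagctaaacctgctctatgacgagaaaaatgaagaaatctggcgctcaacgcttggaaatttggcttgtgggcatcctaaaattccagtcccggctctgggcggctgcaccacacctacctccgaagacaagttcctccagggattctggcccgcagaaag

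All values are RMA log2 levels, on which a step of 1 is a doubling, and a level was never compared between genes. The array medians lay between 4.82 and 4.87. Added hybridization spike controls averaged 11.06 to 11.25 on 5 arrays and 11.63 on the control array of experiment 3. The difference between the 3′ and 5′ probe sets of beta-actin, a sign of RNA integrity, ran from 0.61 to 0.76. Its highest values, 0.75 (control) and 0.76 (irradiated), belonged to experiment 1, followed by 0.72 on the third control. For Gapdh, the first pair of arrays read 0.19 (control) and 0.23 (irradiated). All arrays of the later pairs were below 0 for Gapdh, from -0.05 to -0.01. Of the mesenchymal stromal markers 7 of 8 were measured, with Pdgfra at 9.11 to 9.51 and Cd44 at 10.74 to 11.00, but Thy1 lay at 3.51 to 4.07, below the median probe set (4.84). Fat cell markers were high (Adipoq 13.62 to 13.94), and so were macrophage and leukocyte markers, with Csf1r at 12.42 to 12.80 and Ptprc at 9.55 to 10.09. Of 4 endothelial markers, Pecam1 (2.58 to 3.21), Tek (2.81 to 3.08) and Cdh5 (3.63 to 3.88) were below the median probe set on every array, and Kdr (5.40 to 5.68) was above it. In such bulk RNA, fewer cycling cells and less replication RNA per cell cannot be told apart.

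No replication or G1/S gene passed the test of irradiated against control cultures, but nearly all leaned the same small way. The irradiated minus control difference was above 0 for 36 of the 38 genes, with a median of 0.14, while 50.5% of all 18193 genes were above 0, with a median of 0.0033. Tyms (-0.05) and Ccnd1 (-0.01) were the exceptions. The differences ran from -0.05 to 0.40, and the smallest adjusted p was 0.929 (limma with the experiment as a block, Benjamini-Hochberg over 45037 probe sets). Over those probe sets 0 were called, which is 0%. At an unadjusted p under 0.05, Orc1 and Chtf18 were higher, 2 of 38 genes, against 1.93% of all genes (352 of 18193). The 95% intervals lay inside 1.5-fold in either direction for 35 genes, all but Mcm3, Chtf18 and Ccne2, and inside 2-fold for all 38. Leaving out experiment 3 left 23 genes above 0 and a median of 0.025.

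**Figure D1:**
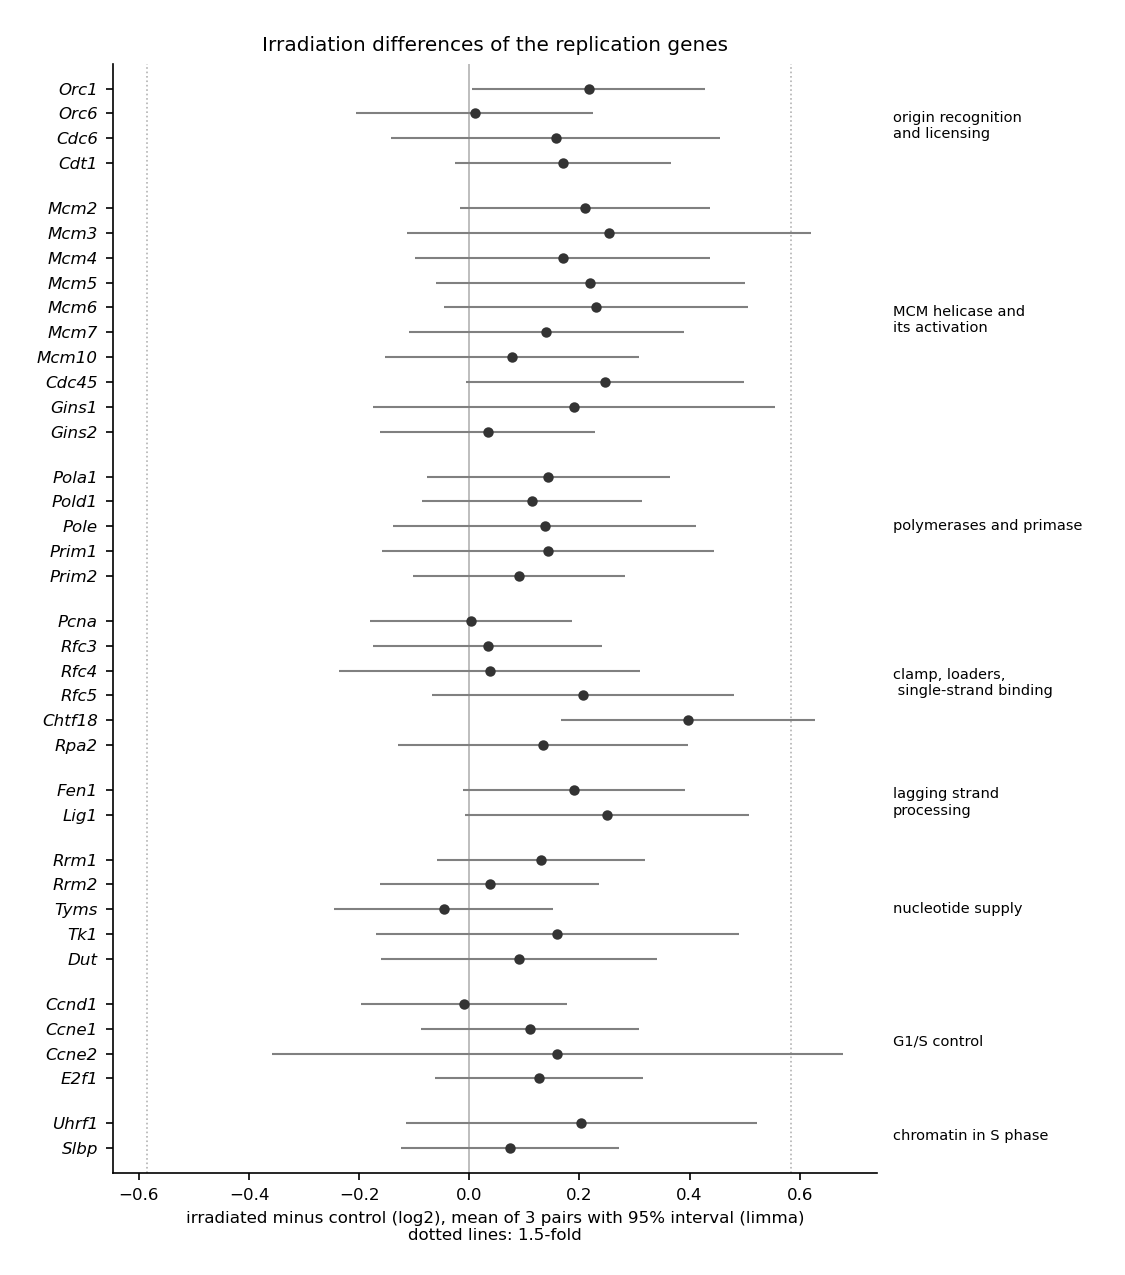
Irradiated minus control log2 difference of each gene (points, mean of 3 pairs) with its 95% interval from limma, grouped by role; dotted lines mark 1.5-fold. Of the 38 points, 36 lie above 0, and the intervals of Mcm3, Chtf18 and Ccne2 reach past 1.5-fold.

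Among the genes that mark and license origins, Orc1, the large ATPase subunit of the origin recognition complex, had control levels of 5.45, 5.54 and 5.45 and irradiated levels of 5.77, 5.60 and 5.72 in experiments 1, 2 and 3. Every irradiated array was above every control array. Its difference was 0.22 ± 0.09 (SE, n = 3 pairs; limma adjusted p = 0.929). Its second probe set gave 0.06 ± 0.10. Such a separation, with all 3 irradiated arrays above all 3 controls, was seen for 3 of the 38 genes (Orc1, Cdc45 and E2f1) and for 3.31% of all genes. In the other probe sets of these genes the arms overlapped.

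Cdt1, which loads the helicase and is destroyed once S phase starts, stood at 10.65, 10.26 and 10.19 in controls and 10.71, 10.46 and 10.44 in irradiated cultures. It was higher in the irradiated culture of all 3 pairs, though the arms overlapped, and its difference was 0.17 ± 0.08. A higher level in all 3 pairs was found for 13 of the 38 genes, against 12.4% of all genes, and a lower level in all 3 for none of the 38. Cdc6, the partner of Cdt1 in loading, read 6.08, 5.95 and 5.63 in controls and 6.07, 5.93 and 6.13 in irradiated cultures, so the arms were level in experiments 1 and 2 and apart in the third. Orc6, a small subunit of the origin complex, differed by 0.01 ± 0.09.

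The 6 subunits of the MCM helicase ring were close to one another in their behaviour. In controls their mean level was 9.60, 9.38 and 9.01 in experiments 1, 2 and 3, and in irradiated cultures it was 9.63, 9.46 and 9.51. The control culture of experiment 3 thus stood apart, and it was the lowest of the 6 arrays for each of the 6 subunits. Mcm3 read 8.44, 8.10 and 7.62 in controls and 8.41, 8.18 and 8.33 in irradiated cultures. Its pair differences were -0.03, 0.08 and 0.71, and the mean of them was 0.25 ± 0.15 (SE, n = 3 pairs; limma adjusted p = 0.929).

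Mcm5 read 9.72, 9.53 and 9.10 in controls and 9.78, 9.60 and 9.63 in irradiated cultures. Mcm6 read 10.00, 9.79 and 9.45 in controls and 10.07, 9.88 and 9.98 in irradiated cultures. In both genes, 5 arrays lay within 0.3 of each other and the control of experiment 3 lay below them. Mcm2, Mcm4 and Mcm7 had pair 3 differences of 0.40, 0.45 and 0.39. Over the ring, the median difference was 0.22 and the pair 3 differences ran from 0.39 to 0.71.

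Among the factors that activate the ring, Cdc45 read 6.55, 6.39 and 6.30 in controls and 6.57, 6.65 and 6.76 in irradiated cultures, with no overlap of the arms. Its difference was 0.25 ± 0.10 (limma adjusted p = 0.929), and its other probe set, which was dimmer, gave 0.04 ± 0.08. Gins1, a subunit of the GINS complex, had pair differences of -0.16, 0.11 and 0.62, whereas those of its partner Gins2 were -0.07, 0.06 and 0.11. The pairs thus disagreed in sign for both. Mcm10, a scaffold needed for origin firing, differed by 0.08 ± 0.09.

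All 5 polymerase and primase genes had differences above 0, and for all 5 the lowest array was the control of experiment 3. Pola1, the catalytic subunit of the polymerase that starts each strand, read 7.17, 6.81 and 6.55 in controls and 7.13, 7.04 and 6.79 in irradiated cultures. Both arms were thus lowest in experiment 3. Pole, the leading strand polymerase, read 6.92, 6.88 and 6.29 in controls and 6.96, 6.82 and 6.72 in irradiated cultures. The third pair differed by 0.43 and the other pairs by 0.04 and -0.06. Pold1, the lagging strand polymerase, differed by 0.11 ± 0.08, and the primase subunits Prim1 and Prim2 by 0.14 ± 0.12 and 0.09 ± 0.08.

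Of the clamp and its loaders, Chtf18, which belongs to an alternative clamp loader used in sister chromatid cohesion, had the largest mean difference of the 38 genes. It read 5.17, 4.90 and 4.60 in controls and 5.58, 5.11 and 5.17 in irradiated cultures. The irradiated culture was above its own control in every pair, but the arms overlapped because the experiments themselves differed. The difference was 0.40 ± 0.09, with a 95% interval of 0.17 to 0.63, an unadjusted p of 0.0055 and an adjusted p of 0.929 (limma). It was read from a single probe set near the median brightness.

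Pcna, the sliding clamp, read 11.58, 11.91 and 12.06 in controls and 11.58, 11.87 and 12.11 in irradiated cultures. The arms were level in each experiment, with a difference of 0.00 ± 0.08 and a 95% interval of -0.18 to 0.19. The loader subunits Rfc3, Rfc4 and Rfc5 had differences of 0.03, 0.04 and 0.21, and pair 3 differences of 0.18, 0.33 and 0.50. Rpa2, a subunit of the complex that coats single-stranded DNA, differed by 0.13 ± 0.11.

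The genes that finish the lagging strand were higher in the irradiated culture of all 3 pairs. Lig1, the ligase that seals Okazaki fragments, read 8.57, 8.20 and 7.84 in controls and 8.64, 8.37 and 8.35 in irradiated cultures. Its difference was 0.25 ± 0.11 (limma adjusted p = 0.929). Fen1, the flap nuclease, had pair differences of 0.06, 0.24 and 0.27 and a mean of 0.19 ± 0.08. The arms overlapped for both.

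Among the genes of nucleotide supply, Rrm1, the large subunit of ribonucleotide reductase, differed by 0.13 ± 0.08 with all 3 pairs above 0, and the small subunit Rrm2 by 0.04 ± 0.08. Tk1, the thymidine kinase of S phase, read 8.12, 8.12 and 7.55 in controls and 8.22, 7.97 and 8.08 in irradiated cultures, so that only the third pair was far apart (0.53). Dut, which removes dUTP, had pair differences of -0.03, -0.04 and 0.34. Tyms, thymidylate synthase, lay between 2.97 and 3.31 and was the 1 member below the median probe set, so its signal was dim.

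The G1/S regulators were mixed. Ccne2, an E-type cyclin, read 7.16, 7.05 and 6.84 in controls and 6.69, 7.26 and 7.58 in irradiated cultures. Its pair differences of -0.47, 0.21 and 0.74 were the widest apart of the set, and the mean was 0.16 ± 0.21. Ccne1, the other E-type cyclin, differed by 0.11 ± 0.08, and Ccnd1, the growth-factor-driven D-type cyclin, by -0.01 ± 0.08. E2f1, the transcription factor of the G1/S step, read 7.47, 7.49 and 7.43 in controls and 7.66, 7.54 and 7.57 in irradiated cultures. These arms did not overlap, yet the gap was narrow and the difference was 0.13 ± 0.08, while the other 2 E2f1 probe sets gave 0.06 and -0.07.

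Uhrf1, which carries DNA methylation through S phase, read 8.78, 8.41 and 7.91 in controls and 8.76, 8.46 and 8.49 in irradiated cultures. The third pair differed by 0.58 and the others by -0.02 and 0.05. Slbp, which binds the stem-loop of replication-dependent histone RNAs, differed by 0.07 ± 0.08 between the arms, and its between-experiment differences are described further on.

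The lean differed in size between the 3 experiments. The median pair difference of the 38 genes was 0.00 in experiment 1, 0.07 in experiment 2 and 0.34 in experiment 3, against 0.01, 0.00 and 0.00 over all genes. The pair difference was above 0 for 17, 28 and 36 of the 38 genes. A difference of at least 0.3, a 1.23-fold step, was reached by 2, 0 and 20 of the 38. Over all genes that share was 4.11%, 4.48% and 7.77%. The third pair gave the largest of the 3 differences for 32 of the 38 genes, against 35.1% of all genes. With 1 array of each kind in an experiment, a pair difference has no error of its own.

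**Figure D2:**
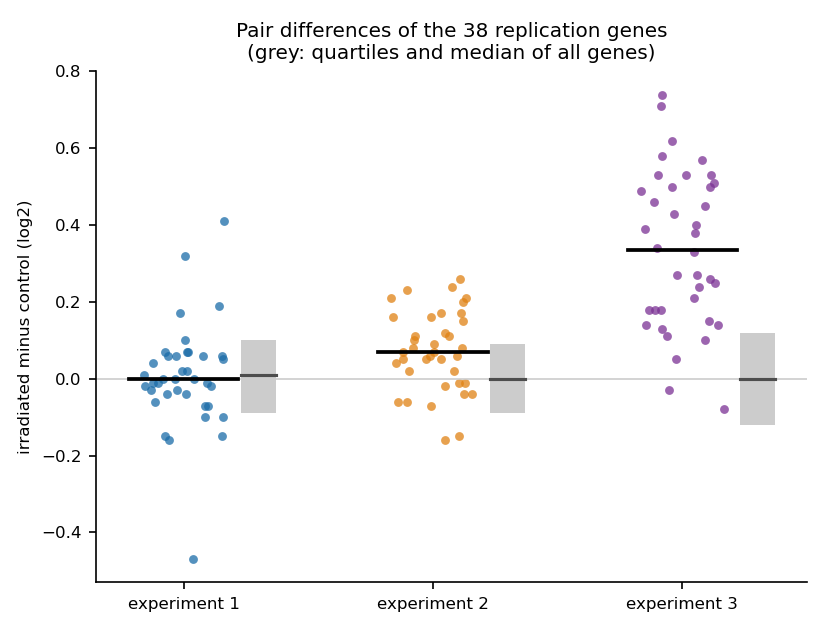
Irradiated minus control log2 difference within each experiment: coloured points are the 38 genes, black bars their medians (0.00, 0.07 and 0.34), and grey bars the range from the lower to the upper quartile of all genes with their median. The third experiment's median lies above those of the other experiments, though the points overlap, while the grey bars stay around 0.

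The pair 3 difference came with a low control array. The control of experiment 3 was the lowest of the 6 arrays for 29 of the 38 genes, against 25.2% of all genes. The irradiated culture of experiment 3 was the lowest for 0 of the 38 (2940 of all 18193 genes) and the highest for 11 (2424 of all 18193). The irradiated culture of experiment 1 was the highest for 16 (3863 of all 18193). The 38 genes averaged 8.32, 8.19 and 8.01 in the controls of experiments 1, 2 and 3, and 8.33, 8.27 and 8.34 in the irradiated cultures. Between controls, experiment 3 minus experiment 1 had a median of -0.35 over the 38 genes, and between irradiated cultures it had a median of -0.08. For controls 34 of the 38 genes lay lower in experiment 3 than in experiment 1 (9652 of all 18193). For irradiated cultures 23 did (9826 of all 18193).

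The same control array had the high spike signal of 11.63, and its macrophage and leukocyte markers were the lowest of the 6 arrays for 7 of 10 genes. The summed level of those 10 markers was 111.32 on it and 112.26 and 112.95 on the other controls, and 113.01 to 113.64 on the irradiated arrays. The beta-actin 3′ minus 5′ difference was 0.72 in that control and 0.62 in its irradiated partner. Fat cell markers were below 0 for 8 of 8 in the irradiated minus control difference, against 8752 of all 18193 genes. Their summed levels were 90.96 to 91.76 in controls and 89.65 to 89.93 in irradiated cultures. Cidec (-0.63, -0.38 and -0.42) and Lipe (-0.43, -0.24 and -0.39) were lower in every pair, not only in the third. For Pparg the pair differences were -0.13, -0.29 and 0.02. The part of any of these in the replication gene values was not tested.

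**Figure D3:**
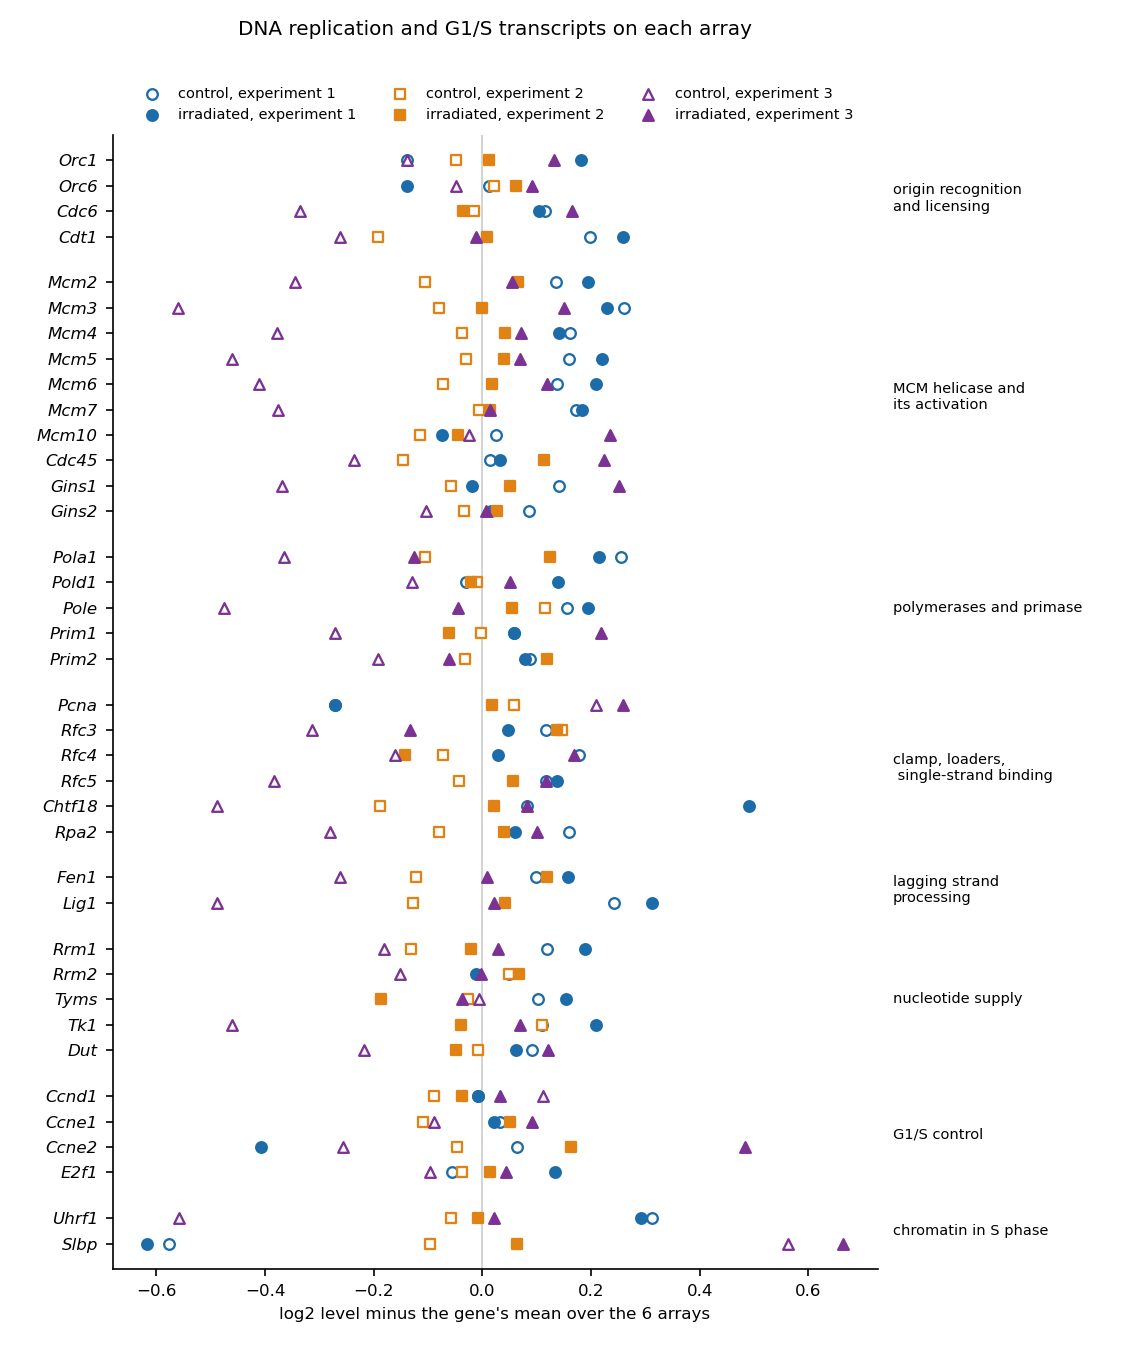
Log2 level of each gene on each of the 6 arrays, as the distance from the gene's own mean, with open symbols for controls, filled symbols for irradiated cultures and a shape and colour for each experiment. The open triangles (control, experiment 3) are the leftmost symbol for 29 of the 38 genes, while Pcna and Slbp have both triangles on the right.

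Other probe sets of the same genes gave a similar picture. The 38 genes had 46 further probe sets, of which 38 had the same sign of the irradiated minus control difference as the chosen one, 7 the opposite sign and 1 was at 0. Among the 31 further probe sets at or above the median brightness, the median pair differences were 0.02, 0.04 and 0.31. For 9 genes there was a single probe set. Some of the chosen sets carry a suffix for probes shared between transcripts or genes (5 _x_at, 4 _s_at and 7 _a_at). For Mcm3, 4 of 5 probe sets had pair 3 differences of 0.41 to 0.71, and the dimmest gave -0.10.

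Among the experiments, 2 of the 38 genes differed beyond the test's threshold, and both were higher in experiment 3 than in experiment 1. These tests used the 2 cultures of each experiment with the arm as a covariate, so they compare these 3 experiments and no treatment. Slbp read 9.85 and 9.81 in the control and irradiated culture of experiment 1, 10.33 and 10.49 in experiment 2, and 10.99 and 11.09 in experiment 3. The 3 experiments did not overlap. Experiment 3 minus experiment 1 was 1.21 ± 0.10 (SE, 2 cultures in each), a 2.31-fold step with an adjusted p of 0.0043 (limma). A second, dimmer Slbp probe set gave 2.02 (limma adjusted p = 0.00072), and the third, at a mean level of 3.04, gave -0.14.

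Pcna read 11.58 on both arrays of experiment 1, 11.91 and 11.87 in experiment 2, and 12.06 and 12.11 in experiment 3, again without overlap. Experiment 3 minus experiment 1 was 0.51 ± 0.09, a 1.42-fold step, with an adjusted p of 0.0488 (limma), close to the threshold of 0.05. Of the alternative settings, 3 ended that call, namely quantile normalization, a robust prior and array weights (adjusted p = 0.0557, 0.0524 and 0.0621), and the others, apart from leaving out an array, kept it between 0.00055 and 0.0441. Over all probe sets, 1.87% were called higher and 1.18% lower in experiment 3 than in experiment 1. By gene, counted as the members were, 376 of 18193 were called higher and 194 lower. The members' 2 higher and 0 lower calls stand beside those counts.

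With any 1 array left out, neither gene passed, and 0 of the 45037 probe sets did in this contrast either. The 5 arrays left over give 1 residual degree of freedom. The Slbp difference then lay between 1.13 and 1.30 and the Pcna difference between 0.47 and 0.54. Heat shock transcripts moved with these experiments: Hspa1a, a stress-induced chaperone singled out after its values were seen, read 5.71 and 5.63 in experiment 1, 8.83 and 9.06 in experiment 2, and 12.70 and 12.35 in experiment 3. Its part in the Slbp and Pcna values was not tested, nor was that of the higher Gapdh 3′ minus 5′ difference of experiment 1.

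**Figure D4:**
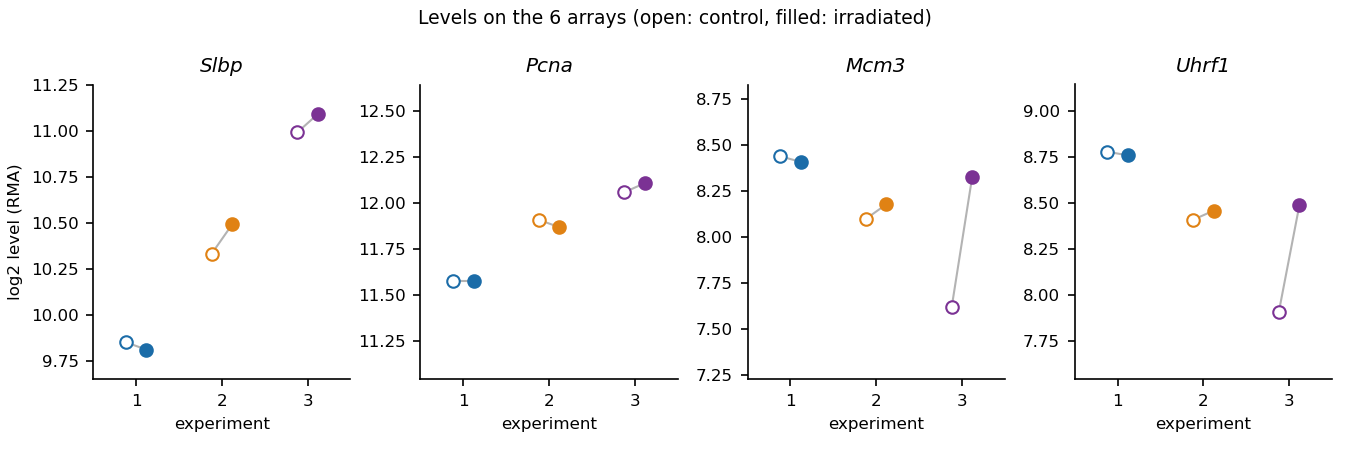
Log2 levels of Slbp, Pcna, Mcm3 and Uhrf1 on the 6 arrays, by experiment, with open points for controls, filled points for irradiated cultures and a line joining each pair; every panel spans the same log2 range. Slbp and Pcna keep their pairs together and differ between experiments, and Mcm3 and Uhrf1 have a low control in experiment 3.

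Most of the set lay the other way. Experiment 3 minus experiment 1 was below 0 for 32 of the 38 genes, with a median of -0.20, against 54.0% of all genes and a median of -0.02. None of the 32 passed the test. Leaving out 1 array moved the median between -0.33 and -0.05, with the value nearest 0 when the control of experiment 3 was left out. Uhrf1 had the largest difference of them, at -0.57 ± 0.16 (limma adjusted p = 0.133), followed by Lig1 at -0.51 ± 0.13 (0.108) and Chtf18 at -0.49 ± 0.12 (0.0924). Pola1 gave -0.48 ± 0.11 (0.0868). Some of these passed under other settings: Pola1 (adjusted p = 0.0399) and Chtf18 (0.0438) with a filter on brightness, and Pola1 (0.0326), Lig1 (0.0258), Uhrf1 (0.0369), Cdt1 (0.0132) and Mcm7 (0.0482) with an intensity trend in limma. Lower calls over all probe sets rose too, from 533 of 45037 in the main fit to 1306, of fewer tested, with the filter. With the trend they rose to 1938. Much of the distance of the 38 genes was in the control arm: Mcm3 lay 0.82 lower in the third control than in the first, and 0.08 lower in the third irradiated culture than in the first. Without the control of experiment 3, the fitted difference of Mcm3 was -0.11, that of Uhrf1 -0.29 and that of Lig1 -0.32, and without the irradiated culture of experiment 3 they were -0.79, -0.85 and -0.71.

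Between experiments 2 and 1, 0.473% of all probe sets were called higher and 0.0466% lower, and between experiments 3 and 2 the shares were 0.0355% and 0%. None of the 38 genes was called in either contrast by limma. The Slbp steps were 0.58 ± 0.10 from experiment 1 to 2 (adjusted p = 0.112) and 0.63 ± 0.10 from 2 to 3 (adjusted p = 0.178). The median over the 38 genes was -0.11 for experiment 2 minus 1 and -0.06 for experiment 3 minus 2. The latter turned to 0.06 without the control of experiment 3 and was -0.24 without its irradiated partner. These contrasts share arrays with one another and are given side by side.

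**Figure D5:**
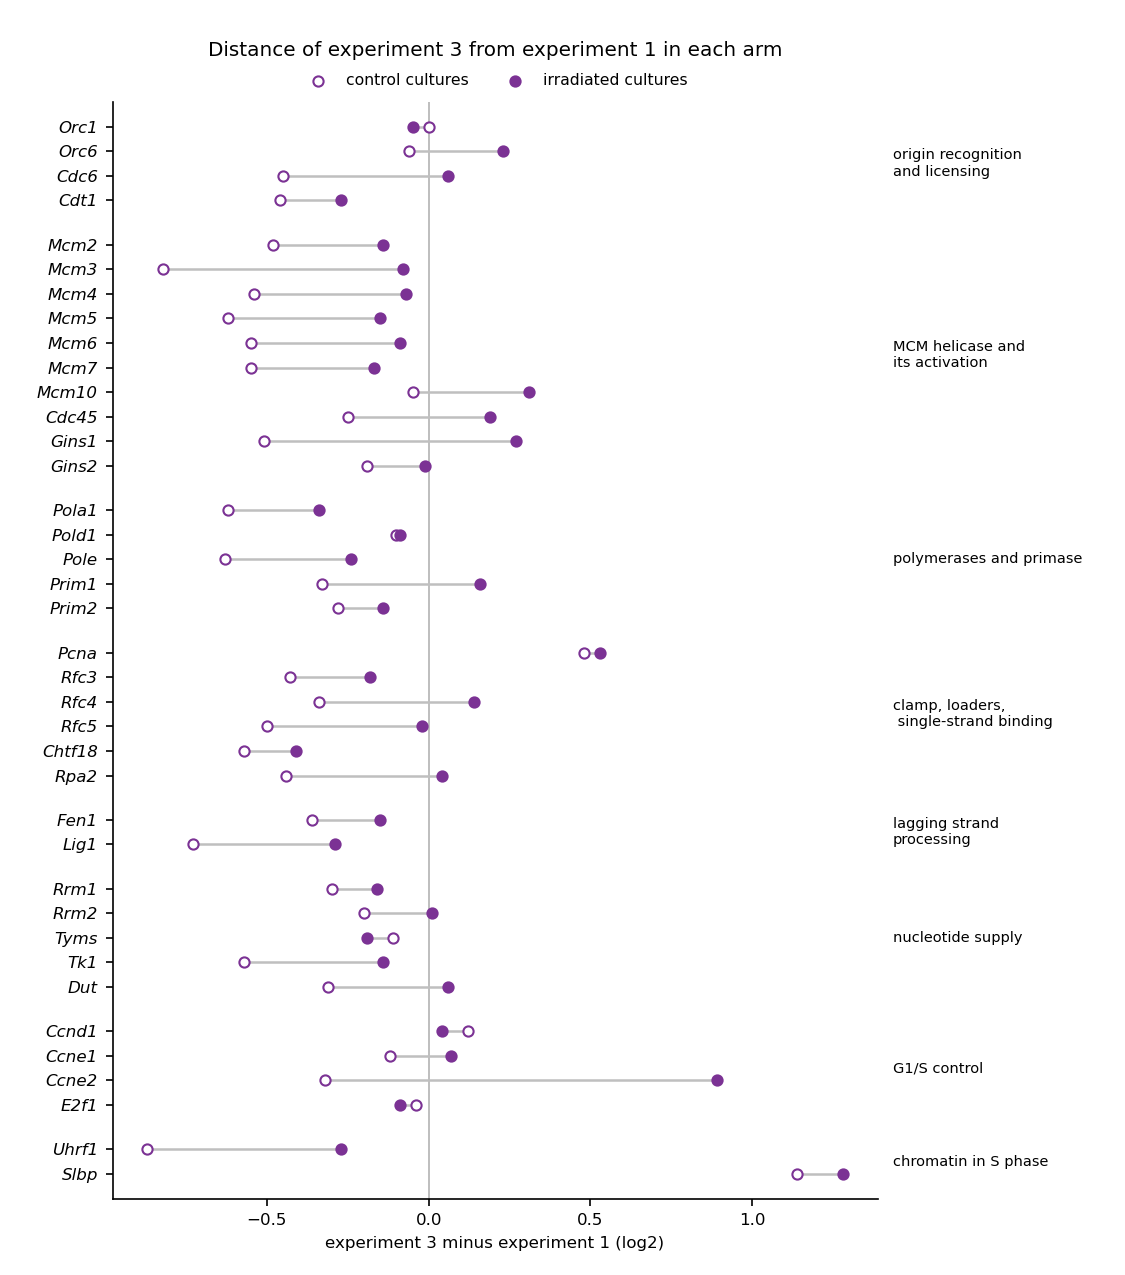
Experiment 3 minus experiment 1 on the log2 scale for each gene, open points for the control cultures and filled points for the irradiated cultures, grouped by role. Open points lie below 0 for 34 genes and filled points for 23, and Slbp and Pcna are above 0 in both arms.

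Genes with and without an E2F word in a promoter window can be set side by side. The 12 genes with one (Orc1, Cdc6, Cdt1, Mcm3, Mcm5, Mcm6, Mcm7, Pola1, Pold1, Rfc3, Lig1 and Uhrf1) had a median pair 3 difference of 0.45, in a range from 0.18 to 0.71. The 19 genes with a window and no such word had a median of 0.27, in a range from -0.03 to 0.57. Among these, the windows of E2f1 and Dut lie wholly inside the annotated span of the gene, so its outer 5′ end was not searched. The same holds for Orc1 and Cdc6 among the genes with a word. For Lig1 and Uhrf1 the window with the word lies inside the gene, and the window at its outer 5′ end had no word. The ranges overlap widely, and the 7 genes without a window had a median of 0.43. In the first pair the medians with and without a word were 0.04 and 0.00, and in the second pair they were 0.065 and 0.07.

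Other genes of replication were taken from a second list, of which 58 of 60 were measured. None passed for irradiation, 45 differences were above 0 and 13 below, and the median was 0.10. Their median pair differences were -0.02, 0.04 and 0.25, and the third control was the lowest array for 44 of the 58. Of the 58, 2 were called between experiments, both lower in experiment 3 than in experiment 1, against 194 of all 18193 genes called lower there. The difference of Atad5, which helps unload the clamp, was -0.96 ± 0.15 (limma adjusted p = 0.0276), and that of Ticrr, needed to fire origins, was -0.67 ± 0.10 (limma adjusted p = 0.0277). Atad5 read 5.81, 5.47 and 4.63 in controls and 5.88, 5.44 and 5.13 in irradiated cultures, so both arms were lowest in the third experiment. Dnmt1, the maintenance methyltransferase that works with Uhrf1, had pair differences of 0.12, 0.21 and 0.37, and Chaf1b, a histone chaperone subunit, 0.23, 0.01 and 0.48.

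The brakes of G1 and the partners of D-type cyclins were mixed: 7 of 18 differences were above 0, 10 below and 1 at 0, with a median of -0.03, and none passed. Cdk4, the kinase that D-type cyclins activate, had pair differences of 0.19, 0.05 and 0.20. Cdkn2a, the locus of inhibitors of Cdk4 and of the p53 regulator Mdm2, had pair differences of 0.00, -0.14 and -0.35. Genes of mitosis leaned with the replication genes. All 23 measured of 24 had differences above 0, with a median of 0.25 and median pair differences of 0.08, 0.06 and 0.52, and none passed. The third control was the lowest of the 6 arrays for all 23. Aurka, a kinase of the spindle poles, had pair differences of 0.26, 0.13 and 0.41, and Bub1b, of the spindle checkpoint, 0.18, 0.15 and 0.47. Whether the replication and mitosis genes differ in this was not tested.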

How the data were processed

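RNA was measured on Affymetrix arrays in 6 cultures. Per the labels' protocols, 200 ng of RNA was labelled with oligo-dT priming. For the deposited log2 levels, 1 per probe set and array, the submitters' processing notes name RMA, affy and limma without versions. The log base is not stated and was taken as 2, the scale of RMA. RMA equalizes the arrays, so differences are relative to other transcripts. Of 45101 probe sets, 64 controls were left out. Genes were named from the platform annotation, using probe sets with 1 symbol.

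Irradiated minus control and the 3 experiment contrasts were fitted with limma 3.58.1 in R 4.3.3 (lmFit, eBayes, two-sided, Benjamini-Hochberg, threshold 0.05), with the experiment or the arm as the other term. The code was tested on simulated data. Pairing comes from the series design: deviations of paired arrays correlated with r = 0.63, 0.14 and 0.50 over probe sets. The precision is limited by 3 arrays per group. Members, lists and motif words were chosen with earlier results of these data known. Named genes were all members, plus genes of the other replication, G1 brake and mitosis lists. From each of these lists the 2 genes with the smallest irradiation p and those called between experiments were taken. That rule was not kept for the cell type markers. Hspa1a, Csf1r, Ptprc and the other markers with values were chosen after those were seen. Alternatives were the block (none or random), quantile normalization, median centring, a brightness filter, an intensity trend, a robust prior, array weights, the mean of a gene's probe sets and leaving out each array or experiment.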

Additional observations from a re-analysis of the deposited data

How the results depend on the processing

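For irradiation, 0 probe sets and 0 of the 38 genes passed under every alternative run, including no replicate block and a random replicate block. Without 1 experiment, the count of genes above 0 ranged from 23 to 36 and their median from 0.025 to 0.20, the lowest without experiment 3. Of 341 single-gene values, 333 kept their direction and 8, all within 0.02 of 0, turned: Ccnd1 under quantile normalization (0.019) and array weights (0.00094), Mcm10 with the mean of probe sets (-0.0089), Orc6 under centring (-0.01) and weights (-0.0051), Pcna under centring (-0.017) and weights (-0.0041), and Rfc4 under weights (-0.0039). With each experiment left out in turn, 97 of 114 values kept their direction, and these genes turned at least once, over the ranges given: Ccnd1 (-0.04 to 0.025), Ccne2 (-0.13 to 0.475), Cdc6 (-0.015 to 0.245), Dut (-0.035 to 0.155), Gins1 (-0.025 to 0.365), Gins2 (-0.005 to 0.085), Mcm10 (-0.015 to 0.165), Orc6 (-0.055 to 0.09), Pcna (-0.02 to 0.025), Pole (-0.01 to 0.235), Prim1 (-0.03 to 0.245), Rfc3 (-0.04 to 0.085), Rfc4 (-0.11 to 0.13), Rrm2 (-0.02 to 0.085), Tk1 (-0.025 to 0.315) and Tyms (-0.095 to 0.01).

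For experiment 2 minus 1, the median was -0.079 with the mean of probe sets. Members called higher were 1 with the brightness filter (Slbp), 2 with the trend (Slbp and Pcna) and 1 with the mean of probe sets (Slbp). Probe sets called higher were 321, 553 and 135 under these settings. Those called lower were 36 without the arm term, 53 with the filter, 117 with the trend and 51 with weights. For experiment 3 minus 1, 1 member was called higher with quantile normalization, the robust prior or weights. Called lower were 2 with the filter (Pola1 and Chtf18) and 5 with the trend (Cdt1, Mcm7, Pola1, Lig1 and Uhrf1). Probe sets called higher were 1596 with the trend and 483 with the mean of probe sets, and those called lower were 1306 with the filter, 1938 with the trend and 267 with the mean. For experiment 3 minus 2, 1 member (Slbp) was called higher with the trend. Probe sets called higher were 48 without the arm term, 58 with the filter, 217 with the trend and 31 with the mean, and those called lower were 4, 6, 58 and 2. Apart from the smaller number of values tested with the filter and the mean, the cause was not tested. With each array left out in turn the median of experiment 2 minus 1 ranged from -0.22 to -0.025, that of 3 minus 1 from -0.33 to -0.05 and that of 3 minus 2 from -0.24 to 0.06, and the counts of probe sets called in each of the 3 contrasts and of members called ranged from 0 to 0, with 1 residual degree of freedom.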
